A study of Macaca fascicularis with 20 samples.

Results

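The genes described here encode the mitochondrial respiratory chain and ATP synthase from the cell nucleus. They were chosen by name: every gene of the species whose RefSeq symbol starts with NDUF, UQCR, ATP5 or COX4 to COX8, or is SDHA, SDHB, SDHC or SDHD. RefSeq lists 94 such genes for the cynomolgus macaque, and 71 of them had at least 1 matched probe, of 12530 genes matched in all. By complex, 32 belonged to complex I, 2 to complex II, 5 to complex III, 17 to complex IV and 15 to complex V. Where a gene had several probes, the brightest on average was taken. Of the 71, 58 were well above background on all 20 arrays and 70 entered the tests. COX7B2, a testis isoform, was well above background on no array and was not tested. The 23 genes without a probe here include SDHA and SDHB, the catalytic subunits of complex II, and NDUFS1 and NDUFV1 of complex I, so those are not analysed here.

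The respiratory chain sits in the inner mitochondrial membrane. Complexes I and II feed electrons from NADH and succinate into ubiquinone, complex III passes them to cytochrome c, and complex IV hands them to oxygen. Complexes I, III and IV pump protons, and complex V, the ATP synthase, uses the resulting gradient to make ATP. Subunits encoded in the mitochondrial genome lie outside these name patterns. NK cells are lymphocytes that draw on both glycolysis and oxidative phosphorylation, and their balance is known to shift with activation and cytokines.

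RNA was measured in unstimulated natural killer (NK) cells and B cells of cynomolgus macaque (Macaca fascicularis) spleen, thawed from frozen stocks and sorted by flow cytometry. All NK sorts were live, NKG2A+ and CD8a+, and lacked CD3, CD14, CD20 and HLA-DR. They were split by surface CD27 and CD11b into CD27lo CD11blo (double-low, 4 arrays), CD27+ CD11blo (CD27 single-positive, 4 arrays), CD27+ CD11b+ (double-positive, 5 arrays) and CD27lo CD11b+ cells (CD11b single-positive, 5 arrays). B cells gave 2 arrays. No animal carried a treatment or genetic change. Replicate 1 of each NK subset came from a male of Cambodian origin aged 4 years, replicate 2 from a male of Vietnamese origin of unstated age, and replicate 3 from a male of Vietnamese origin labelled 9, 10, 11 or 12 years depending on the subset. Replicates 4 and 5 of the NK subsets were of Singapore origin and labelled either male, 5 years, or female, 18 years. The B cell arrays came from Singapore females of 5 and 18 years. No label names an animal, so subsets may share animals, and p-values measure the spread between these arrays.

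A level below is a log2 signal relative to the 75th percentile of all probes on the same array, and a difference is a difference of such levels with limma's standard error (SE). That percentile lay between 180 and 1897 intensity units, lowest in double-positive replicate 4 (180) and double-low replicate 4 (199.6). Each array had 67.9% to 96.0% of its probes well above background. Marker genes matched the sorts: the summed level of 11 NK genes was 5.55 to 7.64 in NK arrays and 2.02 to 2.39 in B cell arrays, and that of 9 B cell genes 0.61 to 3.31 and 5.72 to 5.87. None of the 9 B cell genes was below background on every array of an NK subset. In bulk RNA of a sort, fewer cells of a type and less RNA per cell cannot be told apart.

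The first question was whether the chain differed between CD27+ and CD27lo NK cells, with CD11b balanced. More respiratory chain genes had a higher than a lower mean in CD27+ cells, and their median difference was 0.50 on the log2 scale, while the median over all genes tested was -0.37. Of the 70 genes, 50 had a positive difference and 20 a negative one, and over all genes 34.0% were positive and 66.0% negative. No single gene passed the test across all genes: limma called 0 of 70 at an adjusted p of 0.05, and called 0.0% of the 12185 genes tested. At an unadjusted p under 0.05, 14 were higher and 1 lower in CD27+ cells, beside 6.38% and 15.8% of all genes (22.1% in both directions together). The lowest adjusted p among the 70 was 0.198.

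**Figure D1:**
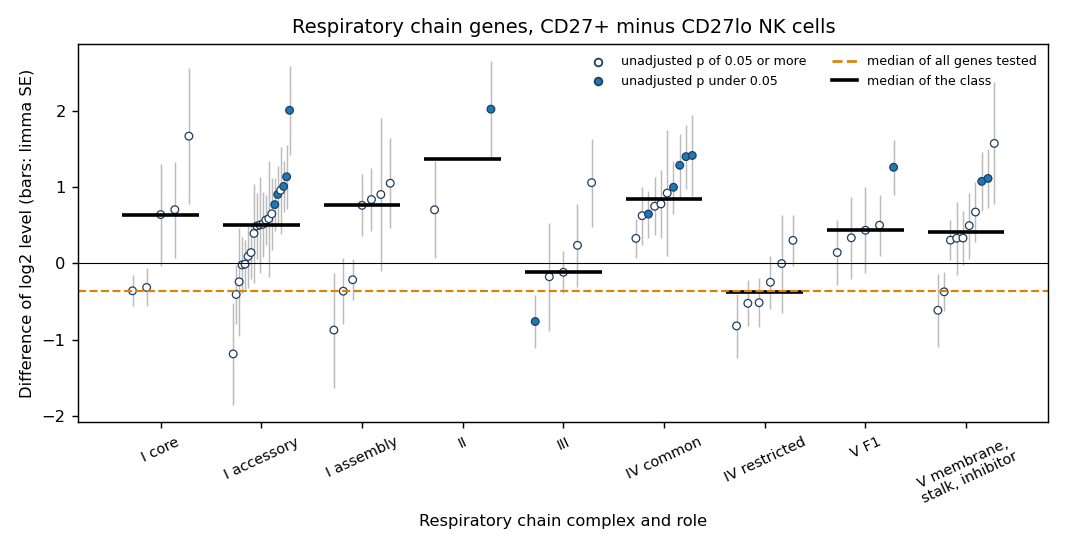
Difference of log2 level between CD27+ and CD27lo NK cells (9 arrays each) for the 70 genes, grouped on the x axis by complex and role. Points are genes with limma SE bars, black lines are class medians, and the dashed line is the all-gene median of -0.37. All 10 common subunits of complex IV lie above 0, COX6A1 with 1 CD27lo array that was not well above background. Complex III and the restricted forms of complex IV have medians below 0.

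The direction was not shared by all complexes. Median differences were 0.54 for complex I, 1.37 for the 2 genes of complex II, -0.12 for complex III, 0.64 for complex IV and 0.44 for complex V.

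Complex II joins the citric acid cycle to the chain, and both of its measured genes encode membrane anchors that hold the ubiquinone site. SDHC levels were -0.11, -0.97, -2.53 and -3.10 in the double-low arrays, and 1.64, 1.09, 0.30 and 0.36 in CD27 single positives. In double positives they were 1.49, 1.09, -0.23, 1.67 and 0.80, and in CD11b single positives 0.38, 0.78, -0.74, 1.17 and -4.40. All 9 CD27+ arrays lay above the CD27lo median of -0.74, but 4 of the 9 CD27lo arrays lay above the lowest CD27+ array. The difference was 2.03 ± 0.63 (SE), with an adjusted p of 0.198 by limma. A second SDHC probe gave 1.93 ± 0.57. SDHD differed by 0.71 ± 0.64 (adjusted p = 0.451), with a single low array in the CD27+ group, double-positive replicate 4 at -5.16. SDHD was not well above background on that array, so this value is not a measured level.

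Complex IV, cytochrome c oxidase, carries the chain's terminal step. Its 10 common nuclear subunits, counting NDUFA4 and the supercomplex factor COX7A2L, were all positive, with a median of 0.85 and 5 at an unadjusted p under 0.05. For COX6A1 (0.92 ± 0.82) the sign rests on double-low replicate 2, at -7.24 and not well above background. The other double-low arrays were at 0.59, 0.79 and 0.90, and 5 of the 9 CD27+ arrays lay below the CD27lo median of 0.49. COX7A2 levels were 0.77, -0.28, 0.72 and -1.33 in double-low cells, 1.60, 1.08, 0.61 and 3.48 in CD27 single positives, 2.19, 1.13, 0.80, 2.54 and 2.33 in double positives, and -0.05, 0.73, 1.31, 1.48 and 0.08 in CD11b single positives. Double-low and CD11b single-positive arrays fill the lower part of that range, and 5 of the 9 CD27lo arrays overlap the CD27+ range. The difference was 1.40 ± 0.42 (adjusted p = 0.198 by limma).

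COX7B levels were -0.32, -0.31, 0.07 and -2.54 in double-low cells, 2.02, 0.71, 0.69 and 1.04 in CD27 single positives, 1.19, 1.15, 1.30, -0.87 and 1.15 in double positives, and -0.69, 0.11, 0.69, 1.07 and -0.70 in CD11b single positives. Double-positive replicate 4 was the lowest CD27+ array. The difference was 1.29 ± 0.41 (adjusted p = 0.198). NDUFA4, long assigned to complex I and now placed in complex IV, differed by 1.42 ± 0.53. COX4I1, the ubiquitous form of the regulatory subunit that binds adenine nucleotides, differed by 1.001 ± 0.35, and COX6C by 0.65 ± 0.31. The smallest of the 10 was COX5B, at 0.33 ± 0.26.

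The restricted forms of complex IV did not share that sign. These are isoforms best known from particular tissues (COX6A2 and COX7A1 from muscle, COX6B2 and COX8C from testis, COX4I2 from lung) and the hypoxia-induced paralog NDUFA4L2. Of the 6 tested, 5 were negative and the median was -0.38. That lies close to all genes tested, of which 66.0% were negative, with a median of -0.37. COX8C gave -0.82 ± 0.42 and COX4I2 -0.52 ± 0.30, while COX4I1 gave 1.001 ± 0.35. COX8C was well above background on 15 of 18 NK arrays, and the other 5 on all 20 arrays.

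**Figure D2:**
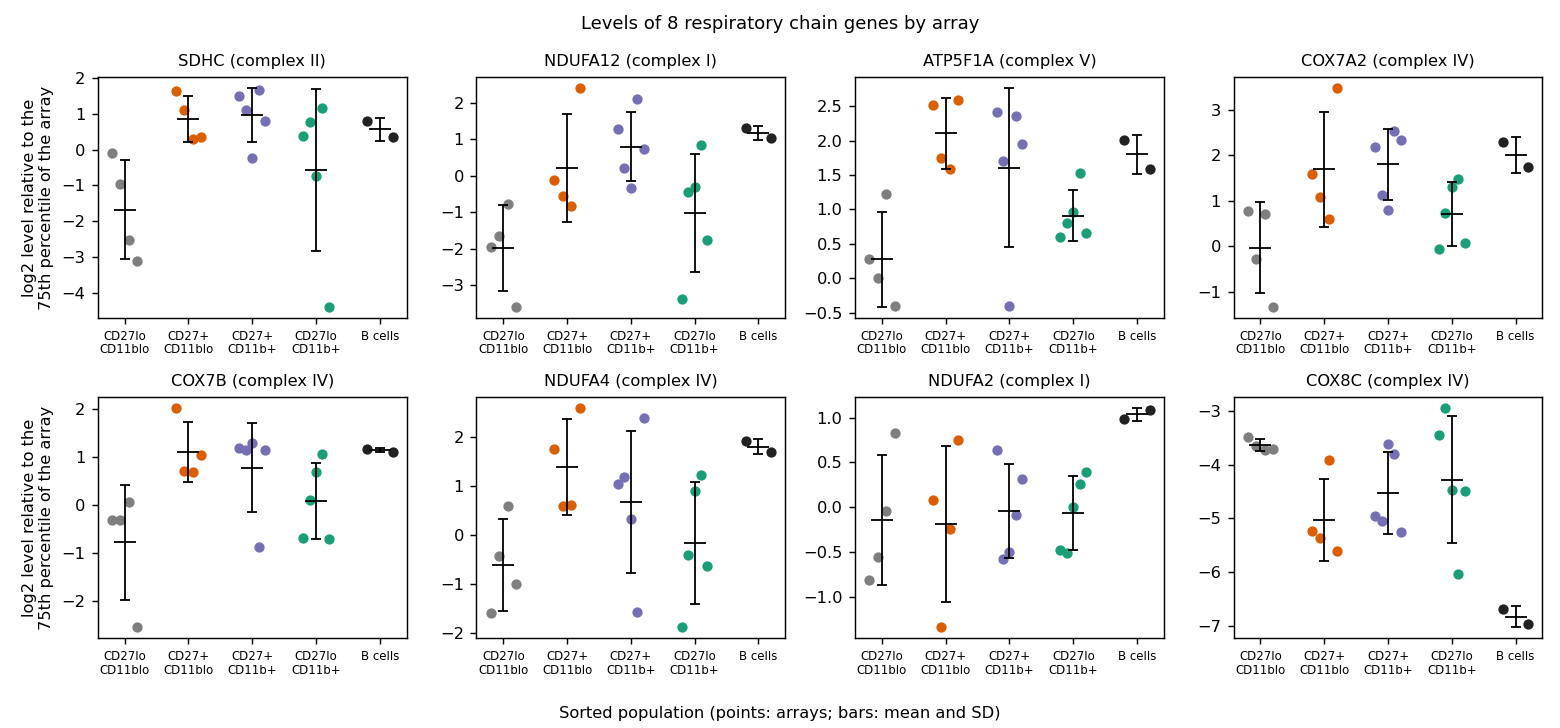
Level (log2 signal relative to the 75th percentile of the array) of 8 genes in each array, by sorted population, with group mean and SD. SDHC, NDUFA12, ATP5F1A, COX7A2, COX7B and NDUFA4 have their lowest mean in double-low cells, while NDUFA2 is highest and COX8C lowest in the 2 B cell arrays.

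Complex I, the largest complex, had 5 core, 20 accessory and 7 assembly genes tested. Accessory subunits, which scaffold the catalytic core, were positive for 15 of 20, with a median of 0.51 and 5 at an unadjusted p under 0.05. NDUFA12 led them. Its levels were -1.94, -1.65, -0.77 and -3.61 in double-low cells, -0.13, -0.55, -0.83 and 2.41 in CD27 single positives, 1.27, 0.20, -0.33, 2.11 and 0.73 in double positives, and -3.39, -0.46, -0.32, 0.85 and -1.76 in CD11b single positives. All CD27+ arrays were above the CD27lo median of -1.65, and 4 of 9 CD27lo arrays overlapped them. The difference was 2.01 ± 0.58 (adjusted p = 0.198).

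The other 4 accessory genes at an unadjusted p under 0.05 belong to the membrane arm. NDUFB8 gave 1.14 ± 0.42, NDUFB4 1.01 ± 0.34, NDUFB1 0.91 ± 0.37 and NDUFB2 0.77 ± 0.35. NDUFB3, of the same arm, had the most negative difference of the 70 genes, -1.19 ± 0.67, but it was not well above background on any CD27 single-positive array. The catalytic core was mixed, with 3 of 5 genes positive. NDUFS7 and NDUFS8 gave -0.31 ± 0.25 and -0.36 ± 0.21, and NDUFV2 gave 0.64 ± 0.67.

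Assembly factors of complex I do not stay in the finished enzyme. Of the 7, 4 were positive: NDUFAF3 (1.05 ± 0.59), NDUFAF1 (0.91 ± 1.01), NDUFAF7 (0.84 ± 0.41) and NDUFAF8 (0.76 ± 0.41). NDUFAF2, NDUFAF5 and NDUFAF6 were negative, and none of the 7 reached an unadjusted p of 0.05.

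Complex V makes ATP in its F1 head, driven by a ring that turns in the membrane. All 5 F1 genes were positive, with a median of 0.44. ATP5F1A encodes the alpha subunit of the head. Its levels were 0.28, 0.00, 1.22 and -0.40 in double-low cells, 2.51, 1.75, 1.59 and 2.58 in CD27 single positives, 2.42, 1.70, -0.40, 2.35 and 1.95 in double positives, and 0.60, 0.80, 0.96, 1.53 and 0.66 in CD11b single positives. Of the CD27+ arrays, 8 lay above all 9 CD27lo arrays, and double-positive replicate 3, at -0.40, lay below 8 of them. The difference was 1.26 ± 0.36 (adjusted p = 0.198), the lowest unadjusted p of the 70 genes (0.00229).

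The catalytic beta subunit, ATP5F1B, gave 0.34 ± 0.54, with a spread from -1.81 to 3.32 across NK arrays. In the stalk and membrane part, ATP5MC2, 1 of the genes for the c ring, gave 1.12 ± 0.39, and ATP5PO, which links head and stalk, gave 1.08 ± 0.39. ATP5MC1, another c-ring gene, gave -0.37 ± 0.26. The inhibitor ATP5IF1 gave 0.33 ± 0.48.

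Complex III stood at -0.12, with 2 genes positive and 3 negative. UQCRFS1, the Rieske iron-sulphur protein, gave -0.76 ± 0.35 (unadjusted p = 0.0432, adjusted p = 0.221). Its levels ran from -5.01 through a median of -2.84 to -2.35 in CD27+ arrays, and from -3.35 through -2.11 to -1.90 in CD27lo arrays. The value of -5.01, in double-positive replicate 4, was not well above background and is not a measured level. All 9 CD27+ arrays were below the CD27lo median, yet the groups overlap. UQCRQ, a small subunit, gave 1.06 ± 0.58.

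**Figure D3:**
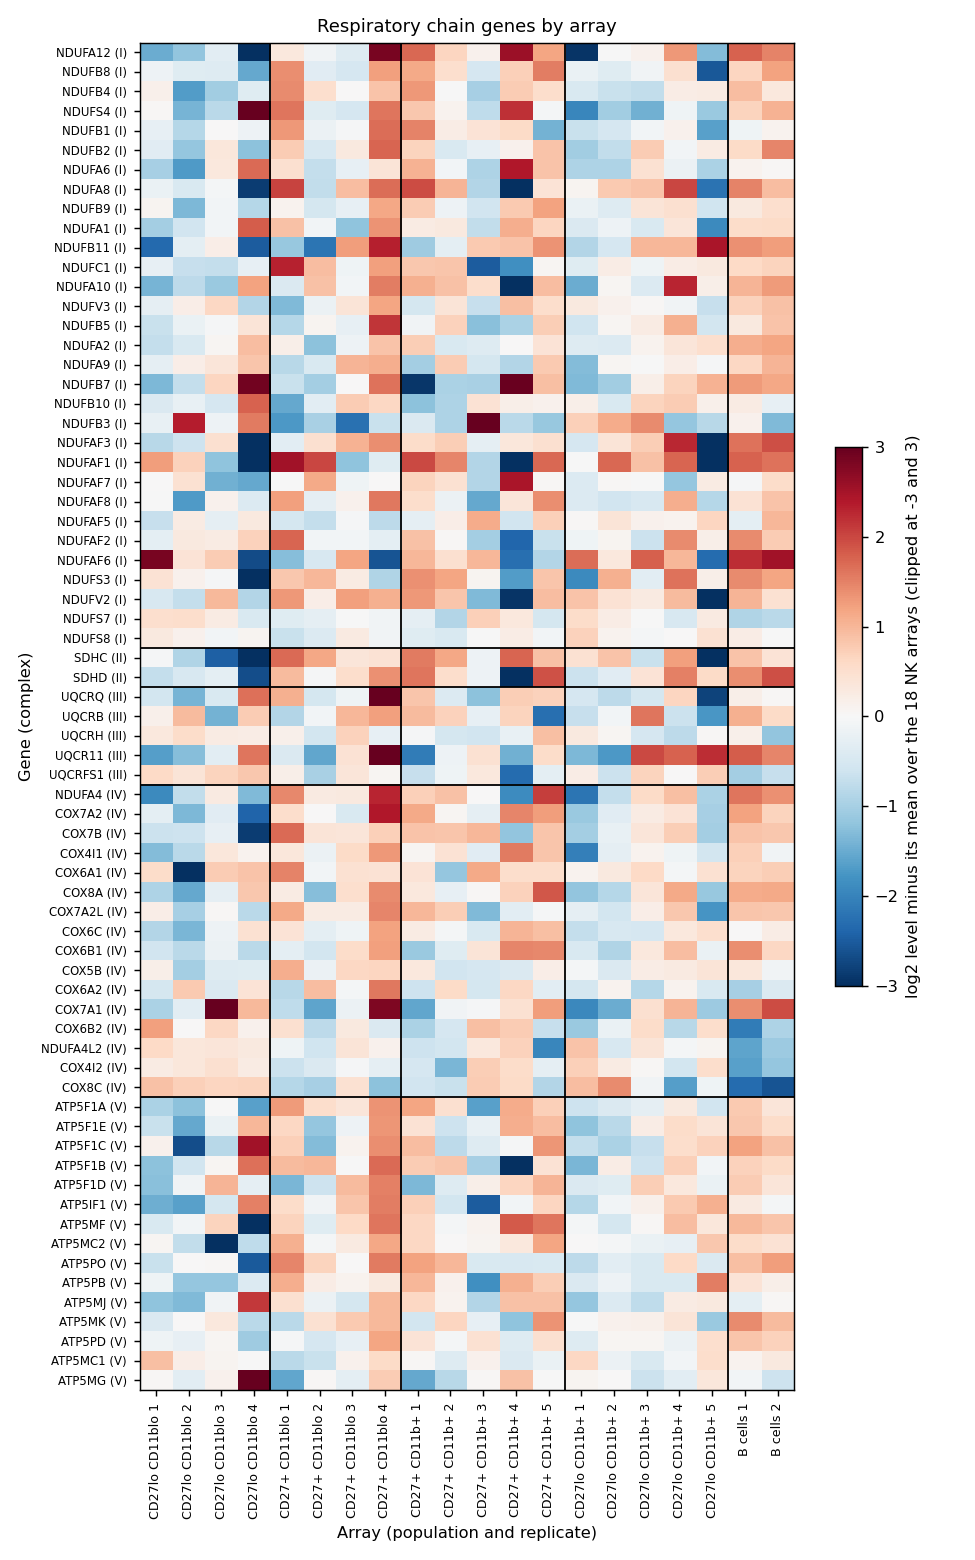
Level of 69 of the 70 tested genes in each array minus the mean over the 18 NK arrays (log2, colour clipped at -3 and 3), ordered by complex and, within roles, by the CD27 difference. Columns are arrays by population. Over the 70 genes, double-low replicate 4 is the lowest of the 18 NK arrays for 12 genes, double-low replicate 2 for 11 and CD11b single-positive replicate 5 for 10, and CD27 single-positive replicate 4 is the highest for 21.

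No gene of the 70 separated all 9 CD27+ from all 9 CD27lo arrays, a split that 0.0164% of all genes showed in each direction. Within slide 1, which holds replicates 1 and 2 of every NK subset, 17 of the 70 had all 4 CD27+ arrays above all 4 CD27lo arrays, beside 9.73% of all genes. These included both complex II genes, 5 of complex IV's common subunits besides NDUFA4, and ATP5F1A, ATP5F1B, ATP5MJ, ATP5PB and ATP5PO of complex V. A fit within that slide called 9 of 69 genes, 8 higher and 1 lower, beside 10.5% of all genes called there (4.68% higher, 5.86% lower). ATP5F1A (1.67 ± 0.32), NDUFA4 (2.22 ± 0.48), ATP5PO (1.53 ± 0.31), ATP5F1B (1.62 ± 0.39), COX7B (1.57 ± 0.38), NDUFC1 (1.49 ± 0.38), SDHC (1.31 ± 0.33) and ATP5MJ (1.28 ± 0.34) were higher and COX8C (-1.76 ± 0.45) lower, with adjusted p from 0.0491 to 0.0497 by limma. The median difference was 0.75 within slide 1 and 0.12 within slide 2. Slide 2 held only 3 CD27+ and 3 CD27lo arrays, with replicate 3 alone for double-positive and CD11b single-positive cells. With limma's array weights 18 were called, 14 higher and 4 lower, beside 32.4% of all genes (6.57% higher, 25.9% lower).

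Signal strength moved with CD27 on slide 1 only. On slide 1 the 75th percentile was 1314 to 1897 units in CD27+ arrays and 622.4 to 1061 in CD27lo arrays, without overlap. On slides 2 and 3 together it was 180 to 1439 units in CD27+ NK arrays and 199.6 to 1396 in CD27lo NK arrays. With that signal as a covariate, added after the data were seen, the median difference was 0.38, with 52 of 70 positive. The genes described here were also bright: 44 lay in the brightest of 4 equal classes of genes by mean signal. In that class the other genes had a median of -0.07 and 47.5% were positive, while 38 of the 44 were positive, with a median of 0.65.

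Platelet, erythroid and monocyte or macrophage markers differed between the CD11blo subsets without overlap, while the ranges of the other marker lists overlapped. Over all genes tested, double-low cells had the highest mean of the 4 subsets for 50.5%, and CD27 single positives for 20.8%. The summed level of 4 platelet genes was 3.13 to 3.74 in double-low arrays and 2.41 to 2.80 in CD27 single positives. That of 5 erythroid genes was 2.98 to 3.22 and 2.01 to 2.80, and that of 8 monocyte or macrophage genes 2.95 to 3.29 and 2.39 to 2.81. All of the monocyte genes were well above background on every array of both subsets, as were 4 of the 5 erythroid genes. For T cells, 4 genes gave 1.34 to 3.002 and 2.60 to 3.56, although cells with surface CD3 were gated out. Among the CD11b+ subsets the ranges overlapped for all 4 lists, for platelet genes at 2.35 to 3.54 in double positives and 2.51 to 3.90 in CD11b single positives. Neutrophil genes gave 2.64 to 3.14 in double-low cells and 1.63 to 2.86 in CD27 single positives, which overlap. Ranges for stroma and endothelium, plasma cells and B cells overlapped between these subsets too. The part of signal strength and of other cells in these differences was not tested.

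The next question was how the 4 subsets ranked. Double-low cells had the lowest mean for 35 of the 70 genes (50.0%), and CD27 single positives the highest for 32 (45.7%). Over all genes tested, these places fell to the same subsets for 21.5% and 20.8%. With the ranking repeated without the 2 dimmest arrays, a recount added after seeing the data, the counts were 38 and 38, beside 21.0% and 19.0% of all genes. Of the 10 common complex IV subunits, 9 were lowest in double-low cells, also without those arrays. COX6A1 is among the 9 by its mean, but its double-low median of 0.69 was the highest of the 4 subsets. Its value of -7.24 in double-low replicate 2, not well above background, was kept in the recount. Complex V was lowest there for 10 of 15 genes, complex I for 14 of 32 and complex III for 0 of 5.

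The mean level of all 70 genes, each centred on the 18 NK arrays, was -0.33 ± 0.19 (SD, n = 4) in double-low cells, 0.32 ± 0.50 (n = 4) in CD27 single positives, 0.13 ± 0.30 (n = 5) in double positives and -0.12 ± 0.41 (n = 5) in CD11b single positives. The ranges of neighbouring subsets overlap. Double-low and CD27 single-positive arrays overlap too, since the former ran from -0.57 to -0.09 and the latter from -0.19 to 0.99. The top of that range is CD27 single-positive replicate 4. The test for any difference over the 4 subsets called 0 of 70 genes, and 0.0% of all genes. At an unadjusted p under 0.05 it had 8, beside 8.72% of all genes, led by ATP5F1A, NDUFA12 and ATP5MC2 (adjusted p = 0.56 for each).

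**Figure D4:**
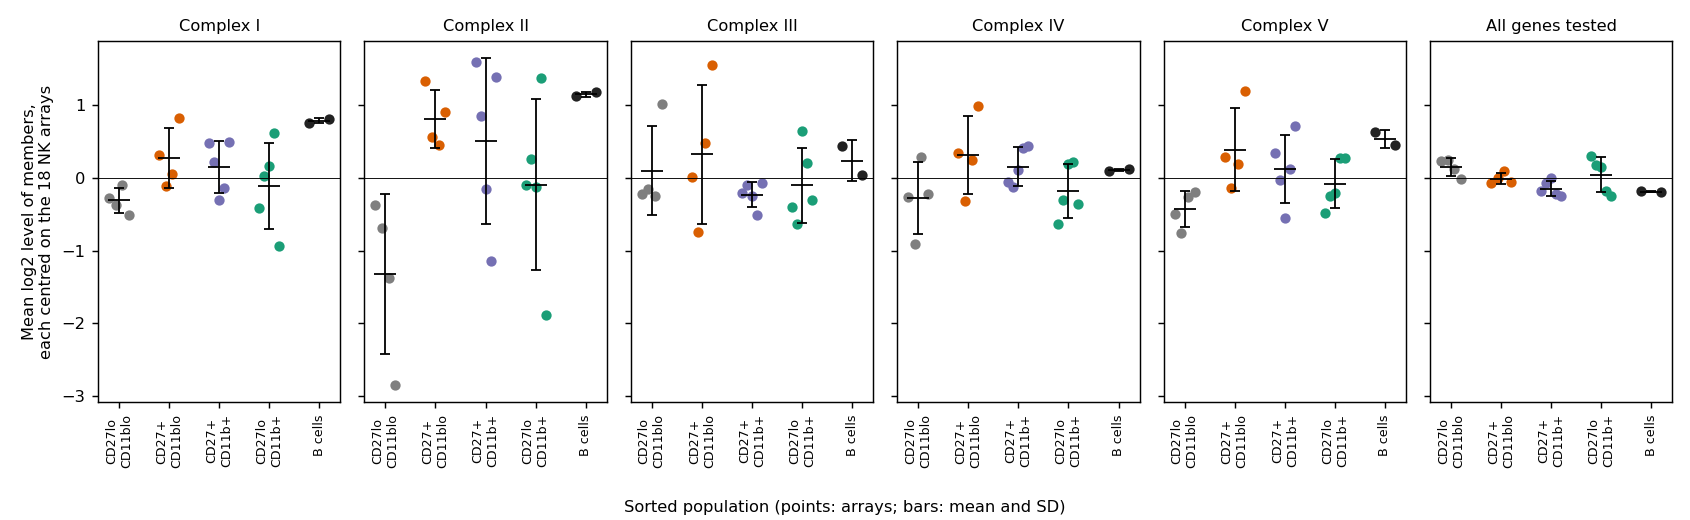
Mean log2 level of the genes of each complex, and of all genes tested, with every gene centred on the 18 NK arrays, per array and population (bars: mean and SD). Double-low arrays are lowest on average for complexes I, II, IV and V, B cell arrays are high for complexes I, II and V, and double-low arrays are not the lowest for all genes.

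Between the single-positive subsets, 55 of 70 genes had a lower mean in CD11b than in CD27 single positives and 15 a higher one, beside 39.3% and 60.7% of all genes. The median difference was -0.47, and 0.19 over all genes. No gene was called here, in the 70 or among all genes (0.0%). At an unadjusted p under 0.05, 6 were lower and 0 higher, beside 2.88% and 2.38% of all genes (5.26% together). They were ATP5F1A (-1.20 ± 0.51), NDUFB1 (-1.24 ± 0.53), UQCRQ (-1.81 ± 0.82), ATP5PO (-1.20 ± 0.54), COX4I1 (-1.09 ± 0.49) and NDUFS4 (-1.74 ± 0.81), each with an adjusted p of 0.813. ATP5F1A was the only gene of the 70 with all 5 CD11b single-positive arrays below all 4 CD27 single-positive arrays, a pattern of 1.18% of all genes. NDUFAF5, an assembly factor that modifies NDUFS7, was the only one with all 5 above, a pattern of 0.927%. This comparison shares arrays with the CD27 comparison.

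CD11b by itself, with CD27 balanced, left the 70 genes evenly spread around 0. The median difference was 0.00, and 35 genes were positive and 35 negative, beside 36.7% and 63.3% of all genes. Over all genes the median was -0.13, and 48 of the 70 lay above it. No gene of the 70 was called, beside 0.0164% of all genes, and 0 reached an unadjusted p of 0.05, beside 5.05% (1.83% higher, 3.22% lower). NDUFAF5 came closest, at 0.56 ± 0.27 (adjusted p = 0.944). The CD27 by CD11b interaction called 0 genes (0.0% of all), and 2 had an unadjusted p under 0.05, beside 1.44%: NDUFC1 (-2.15 ± 0.88) and COX5B (-1.22 ± 0.51).

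The last comparison set NK cells against B cells, as the mean of the 4 subset means minus the mean of 2 B cell arrays. Respiratory chain genes mostly had lower means in NK cells: 58 of 70 had a negative difference, with a median of -0.68, while 40.9% of all genes were negative and their median was 0.36. Only COX8C passed the test, so 1 of 70 was called, beside 2.92% of all genes (1.72% higher, 1.2% lower). At an unadjusted p under 0.05, 5 were higher and 2 lower, beside 17.5% and 5.2% of all genes. With a block for the animal that origin, sex, age and number point to, the median over the 70 genes was -0.29, with 43 negative and 27 positive. B cell replicate 1 is the only array of its animal in that block, so the B cell side rests on replicate 2 alone. COX8C gave 2.19 ± 1.02 in that fit.

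**Figure D5:**
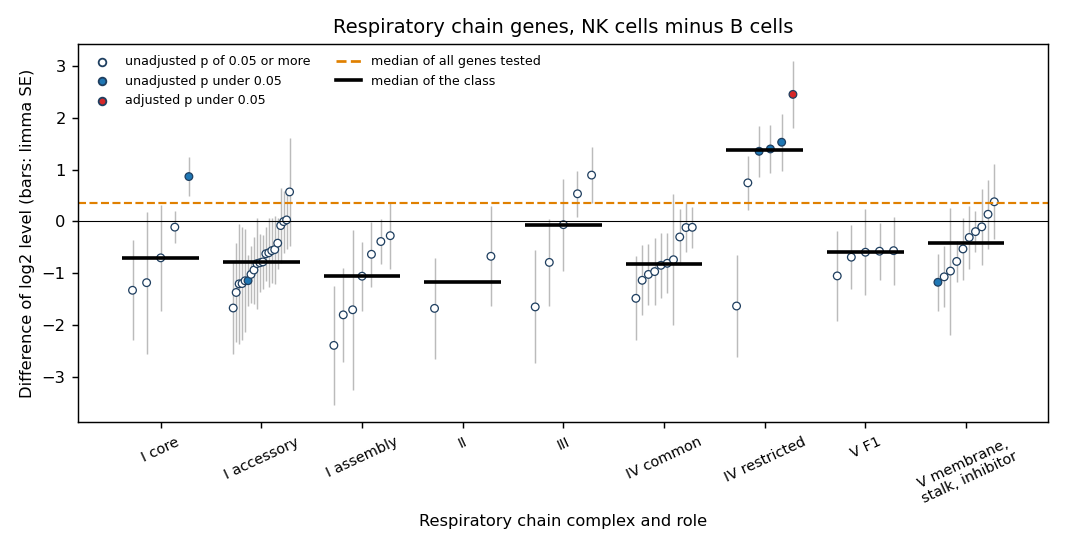
Difference of log2 level between NK cells (18 arrays) and B cells (2 arrays) for the 70 genes by complex and role, with limma SE bars, class medians in black and the all-gene median of 0.36 dashed. All 7 complex I assembly factors, all 5 F1 genes and all 10 common complex IV subunits lie below 0, and 5 of 6 restricted complex IV forms lie above it.

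The negative side held most classes. Complex I had 29 of 32 genes negative (median -0.79), including all 7 assembly factors (median -1.06). Of these, NDUFAF6 gave -2.39 ± 1.15 and NDUFAF3 -1.80 ± 0.91, with adjusted p of 0.224 and 0.239. Complex V had 13 of 15 negative (median -0.57), and the 5 F1 genes lay between -1.05 and -0.56. Complex II stood at -1.17, and complex III, with 3 of 5 negative, at -0.06. The 10 common complex IV subunits were all negative (median -0.83), led by NDUFA4 at -1.48 ± 0.81. Under the animal block the medians of complexes I and II stayed negative (-0.45 and -1.78), while those of complexes III (0.77), IV (0.083) and V (0.16) were positive.

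NDUFA2, an accessory subunit of the matrix arm, was 0.99 and 1.08 in the B cell arrays. In the 18 NK arrays it ran from -1.33 through a median of -0.06 to 0.83. It was the only gene of the 70 with every NK array below both B cell arrays, a pattern of 3.19% of all genes. The difference was -1.14 ± 0.49 (adjusted p = 0.18). ATP5MK, a small subunit of the ATP synthase membrane part, gave -1.17 ± 0.55 (adjusted p = 0.213).

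The positive side held 12 genes, of which 5 were restricted complex IV forms and the others were NDUFS7, NDUFB1 and NDUFB3 of complex I, UQCRFS1 and UQCRH of complex III, and ATP5MG and ATP5MJ of complex V. UQCRFS1 gave 0.89 ± 0.53 (adjusted p = 0.306), with 16 of 18 NK arrays above both B cell arrays. NDUFB3 (0.57 ± 1.04), UQCRH (0.53 ± 0.44) and ATP5MG (0.38 ± 0.73) had smaller differences. COX8C was -6.68 and -6.96 in the B cell arrays and ran from -6.03 through a median of -4.19 to -2.95 in NK arrays. Every NK array was above both B cell arrays, as for 7.45% of all genes. It was not well above background on either B cell array, so the fold has a bound only: at least 2.22-fold higher in NK cells. That bound sets the NK mean against the higher of the probe's own signal and the dimmest signal well above background. The fitted difference was 2.45 ± 0.64 (adjusted p = 0.0435 by limma), and the call did not outlast the omission of either B cell array, with an adjusted p of 0.397 without replicate 1 and 0.47 without replicate 2. In those fits the lone B cell array is assumed to vary like the NK groups. Leaving out any double-low array, CD27 single-positive replicates 1, 2 or 3, or CD11b single-positive replicates 3 or 5 also ended the call, at an adjusted p of 0.0506 to 0.0618. COX4I2 (1.40 ± 0.46), COX6B2 (1.53 ± 0.55) and NDUFA4L2 (1.35 ± 0.50) had adjusted p from 0.0967 to 0.126. COX7A1, the muscle form, had the opposite sign, at -1.63 ± 0.98.

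NDUFS7 was 1.19 and 1.29 in B cells and 1.23 to 2.81 in NK cells, with a median of 2.10. The lowest NK array lay between both B cell arrays. Its difference was 0.86 ± 0.38 (adjusted p = 0.191).

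Both B cell arrays stood on slide 2, with 6 NK arrays. Within that slide the median was -0.71, and 5 of the 70 genes were called, beside 15.8% of all genes: COX8C (2.68 ± 0.58), NDUFA4L2 (1.65 ± 0.34), COX4I2 (1.64 ± 0.34) and COX6B2 (1.95 ± 0.47) higher, and SDHC (-1.43 ± 0.36) lower. With array weights 30 were called, 7 higher and 23 lower, beside 45.8% of all genes (33.1% higher, 12.8% lower). The 75th percentile was 1449 and 1650 units in B cells. With signal as a covariate, the median was -0.49 and 59 genes were negative. In the brightest of the 4 signal classes, 39 of 44 were negative (median -0.63), and the other genes had a median of 0.19. The part of signal strength in these differences was not tested.

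Other mitochondrial and metabolic genes were read from 9 lists. In none of them did limma call a gene in the CD27 comparison, where it called 0.0% of all genes, or against B cells, where it called 2.92%. Over all genes tested the medians were -0.37 and 0.36. The mitochondrial ribosome, which translates the mitochondrially encoded subunits, had 62 genes tested. In CD27+ cells 36 were positive (median 0.32), beside 34.0% of all genes. At an unadjusted p under 0.05, 9 were higher and 3 lower, beside 6.38% and 15.8% of all genes. MRPS28 (2.17 ± 0.65), MRPS25 (1.46 ± 0.39), MRPS7 (1.45 ± 0.44) and MRPS22 (1.33 ± 0.41) were among the higher, each with an adjusted p of 0.198. Against B cells 43 of the 62 were negative (median -0.56), beside 40.9% of all genes.

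The citric acid cycle and pyruvate dehydrogenase list, which supplies NADH and succinate, had 11 genes tested. In CD27+ cells 8 were positive (median 0.76), with MPC2, part of the pyruvate carrier, at 1.07 ± 0.45. All 11 were negative against B cells (median -0.46), among them citrate synthase, CS, at -1.37 ± 0.96. Import translocases, which bring nuclear-encoded subunits into the organelle, had 19 genes. Their median was 0.41 in CD27+ cells, with TIMM17A at 1.68 ± 0.59 and TIMM50 at 1.32 ± 0.44, and -0.85 against B cells.

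Electron carriers and ubiquinone synthesis had 16 genes tested, with medians of 0.24 in CD27+ cells and -0.64 against B cells. GPD2, which passes electrons from glycerol phosphate to ubiquinone, gave 0.95 ± 0.36 in CD27+ cells. Assembly factors with other names gave 0.21 and -0.49 over 44 genes. SURF1, needed to build complex IV, gave 1.11 ± 0.40 in CD27+ cells, and COX10, which makes its haem, gave -1.02 ± 0.40.

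Biogenesis regulators gave medians of 0.18 and -1.17 over 11 genes. PPARGC1A, a coactivator of mitochondrial biogenesis, gave -0.92 ± 0.37 in CD27+ cells. Carriers and channels of the mitochondrial membranes gave 0.09 and 0.22 over 9 genes, with the channel VDAC3 at 1.55 ± 0.39 and the phosphate carrier SLC25A3, which supplies ATP synthase, at 0.95 ± 0.31 in CD27+ cells. Antioxidants gave 0.04 and -1.43 over 6 genes. Glycolysis gave 0.12 and -0.31 over 11 genes, with ALDOC at -1.22 ± 0.34 and HK1 at 1.06 ± 0.45 in CD27+ cells. Each gene named from these lists had an adjusted p of 0.198 or more.

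Within subsets the 70 genes varied widely. The median SD of a gene was 0.96 in double-low cells, 0.80 in CD27 single positives, 0.92 in double positives and 0.72 in CD11b single positives. Over all genes it was 0.62, 0.64, 0.98 and 0.83. Of 11 genes with several probes, NDUFA10 alone had probes of opposite sign in the CD27 comparison, and none did against B cells.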

How the data were processed

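Genes and lists were chosen with earlier results of these data known. The submitters' processing notes name Agilent Feature Extraction 10.7.1.1 and Partek, the settings of the latter not being stated there. The deposited array files give an intensity with background subtracted, per the file headers. The deposited matrix holds log2 values with 1 set of quantiles for all arrays and served as an alternative. Per the labels, 50 ng of RNA was amplified and 400 ng labelled with Cy3.

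Of 58659 probes, 20417 (34.8%) matched 12530 genes by transcript accession in the RefSeq table (assembly T2T-MFA8v1.1). Probes well above background on at least 4 of 18 NK arrays (2 of 20 against B cells) were fitted with limma 3.58.1 (trend, robust) in R 4.3.3, after tests on simulated data, with Benjamini-Hochberg adjustment over all genes. NK fits used 18 arrays, and the B cell fit 20. Named genes were those called, or of lowest p, with leading examples per complex and list. Alternatives covered scaling, background, filters, slides, blocks, weights and left-out arrays. The result of 1 gene is not reported here.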

Additional observations from a re-analysis of the deposited data

Results flagged for a closer look

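Within each group of 4 or 5 arrays, the gap of the highest or lowest array to its nearest neighbour was set against the group's range, for the named genes and the complex means. Of 160 such groups 9 stood apart, and chance gives about 1 in 20. In double-low replicate 4, the complex III mean was 1.01 and the other arrays lay at -0.16 or below. ATP5MF was at -6.26 there, COX7B at -2.54 and NDUFA8 at -4.31, where the nearest other arrays were at 0.81, -0.32 and -1.92. In double-positive replicate 4, COX7B was at -0.87 and its nearest neighbour at 1.15. In double-positive replicate 3, ATP5F1A was at -0.40 with its neighbour at 1.70, and NDUFB3 was at -0.92 with its neighbour at -5.48. In CD11b single-positive replicate 5, ATP5MC2 was at 2.26 (neighbour 1.47) and ATP5MK at -0.21 (neighbour 0.90). ATP5MF and NDUFA8 were not well above background on double-low replicate 4, so those values are not measured levels. Among double-positive arrays, NDUFB3 was well above background on replicate 3 only, so its neighbours there are not measured levels either. Double-low replicate 4 and double-positive replicate 4 were the dimmest arrays, and the part of signal in the other values was not tested.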

How the results depend on the processing

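Against B cells, 0 respiratory chain genes were called in place of 1 (COX8C) under quantile scaling, normexp background, the deposited matrix, a filter requiring signal above background on every array, a replicate block by animal as the labels point to it, omission of the 2 dimmest arrays from the fit, and, both added after seeing the data, array signal as a covariate and omission of the 3 arrays with fewest detected probes. The count was 5 within slide 2 and 30 with array weights, and 0 to 1 when single arrays were left out: COX8C lost the call without any 1 double-low array, without CD27 single-positive replicates 1, 2 or 3, CD11b single-positive replicates 3 or 5, or either B cell array. In the CD27 comparison the count was 9 within slide 1 and 18 with array weights, and 0 under every left-out array, where the median ran from 0.35 (without CD27 single-positive replicate 4) to 0.63.

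Medians over the genes tested moved to -0.29 against B cells under the animal block, to 0.12 for CD27 within slide 2 and to -1.34 for the interaction within slide 2. The B cell side of the animal block rests on B cell replicate 2 alone. Slide 2 holds replicate 3 alone for double-positive and CD11b single-positive cells. Under the animal block the medians against B cells turned for complex III (0.77), complex IV (0.083) and complex V (0.16). Single genes turned as follows. Within slide 2, the CD27 differences of COX4I2 (0.089) and NDUFS8 (0.058) turned, as did UQCRFS1 for CD11b (0.011), NDUFS8 between the single positives (-0.13) and NDUFA6 in the interaction (-0.43). Within slide 1, ATP5F1B (0.079) and UQCRQ (0.13) for CD11b, and COX8C (-0.069) and NDUFA8 (0.087) in the interaction turned. Without the 2 dimmest arrays, NDUFS4 (-0.16) and NDUFA6 (-0.043) in the interaction turned. The cause was not tested.

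Replicate numbers do not name 1 animal in every subset. Over 25 pairs of same-numbered arrays the correlation of deviations from group means ran from -0.30 to 0.42, with 17 above 0.1. Its median was 0.22, beside -0.07 over 96 pairs of differently numbered arrays, of which 22 were above 0.1. Same-numbered arrays were thus more alike, and the main fits had no block for this. Most same-numbered pairs also shared a slide, and the part of the slide was not tested. Deviations sum to 0 within a group, so a higher value for some pairs goes with a lower one for others. With the replicate number as a block, 1 gene was called against B cells, NDUFB7 (-2.46 ± 0.58, adjusted p = 0.0275 by limma) and not COX8C (adjusted p = 0.0565). The CD27 median was 0.50 with 0 calls, and no other comparison gained a call. Scaling kept the sign of both medians: 0.48 to 0.68 for CD27 and -0.58 to -0.75 against B cells. Precision against B cells is limited by 2 arrays.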

Other observations

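Over the 18 NK arrays, the level of a respiratory chain gene had a median correlation of 0.42 with the mean of the other tested members, and 55 of 70 were above 0. The median over all genes was -0.26. All arrays share their scaling, slides and signal strength, so this is a description only. The genes closest to the mean of the 70 over these arrays were RPS6 (r = 0.88), a ribosomal protein, SLIRP (0.86), which binds mitochondrial messenger RNA, LPXN (0.86), CCDC59 (0.85) and LYN (0.84), among 12095 genes ranked.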
